A study of Mus musculus with 9 samples.

Results

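Desmosomes are the spot-like junctions that tie the keratin filaments of neighbouring epithelial cells together, and 10 genes that encode their parts or closely linked proteins were followed here in mouse mammary tumours. The 10 were chosen by symbol: the desmosomal cadherins Dsg2 and Dsc2, the plaque proteins Jup, Pkp1, Pkp2 and Pkp3, the plakins Dsp, Ppl and Evpl, and the membrane protein Perp. Earlier results of these data were known at the choice, so the shares of all genes below are a scale and not a test. All 10 were measured, each by 1 array feature that carries its symbol alone, among 19938 genes in all.

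In a desmosome, desmogleins and desmocollins of the cadherin superfamily meet between cells. Inside the cell their tails bind plakoglobin and the plakophilins, which in turn hold desmoplakin, and desmoplakin grips the keratin filaments. In the mammary gland desmosomes join luminal cells to each other and to the myoepithelial layer. In many carcinomas with mesenchymal features desmosomal genes are expressed at a low level.

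The tumours came from 3 transplantable cell lines, NDL, Met1 and SSM2, with 3 samples each on Affymetrix Mouse Gene 1.0 ST arrays. Cultured cells went into mammary fat pads that still held host gland, the hosts being FVB/NJ females of 6 to 8 weeks, and tumours were frozen once 5 to 10 mm wide. As background, the transgene in NDL is an activated ErbB2 (Neu) and in Met1 polyoma middle T, both driven by the mammary tumour virus promoter, and SSM2 is a line positive for hormone receptors. Each line is 1 culture, so a difference between lines is a difference between these 3 cultures as grown in mice, and the labels do not say that the samples of a line came from separate mice or tumours; p-values measure only the spread between these samples, which may be technical. The comparisons ask how the tumours of the 3 lines differ from each other.

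Values were log2 signals, in which a step of 1 is a 2-fold change, and 3 arrays a line limit the precision. Upper quartiles of gene signal were 7.84 and 7.85 in NDL replicates 2 and 1 and between 7.98 and 8.09 on the other 7 arrays. Erbb2 stood at 11.30 ± 0.08 in NDL (SD, n = 3), above Met1 (7.47 ± 0.28) and SSM2 (8.80 ± 0.16). The 25th percentile of mean gene signal was 4.91 and is used below as a mark of low signal.

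The RefSeq promoter sequences used here hold Dsp and Jup of the 10 members. The Dsp stretch from 200 bases before to 20 bases after the start is shown because Dsp had the largest difference of any member, between Met1 and SSM2. It lies at chr13:38151094-38151313 on the plus strand of GRCm38.p6. The first run of capitals is a single match to the 10-base p53-family motif. A full p53 element holds a pair of such motifs and was not searched for. The second run is CAGGTG, the E-box to which Snail and ZEB proteins can bind.

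Dsp: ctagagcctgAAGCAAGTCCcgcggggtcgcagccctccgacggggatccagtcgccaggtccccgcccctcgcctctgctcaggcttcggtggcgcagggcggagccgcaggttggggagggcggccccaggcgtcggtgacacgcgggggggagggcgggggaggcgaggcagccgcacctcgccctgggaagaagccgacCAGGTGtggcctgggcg

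The p53-family motif spans bases -190 to -181 and the E-box bases 4 to 9 from the start site. Of the bases shown, 75.5% are G or C. Among 32851 RefSeq promoter windows of 300 bases, 20.2% held CAGGTG and 8.36% a p53-family element, on either strand. The grainyhead motif AACCGGTT was in 0.146% of windows and its part AACCGG, which every full match also holds, in 6.83%, with neither in the Dsp window. Jup, the other member matched, had none of the 4 motifs in its window. These matches are descriptions of letters and not binding sites.

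Met1 tumours had lower signal for most desmosome genes than tumours of either other line, and NDL and SSM2 tumours did not differ past the threshold for any of the 10. NDL was higher than Met1 in 8 of 10 members and lower in none (limma, adjusted p under 0.05 over all genes), where 19.1% of all genes were called, 8.88% higher and 10.2% lower in NDL. The arrays of the lines did not overlap for 9 of 10 members, all but Evpl, against 38.2% of all genes. Met1 was lower than SSM2 in 7 of 10 and higher in none, where 11.8% of all genes were called, 4.71% lower and 7.10% higher in Met1. Here 10 of 10 did not overlap, against 31.7% of all genes. Both comparisons share the Met1 arrays, and the members were chosen with earlier results of these data known. The 7 members lower in Met1 in both were Dsg2, Dsc2, Jup, Pkp1, Pkp3, Dsp and Ppl, a pattern shown by 2.18% of all genes. The median log2 difference of the members was 1.77 for NDL minus Met1 and -1.81 for Met1 minus SSM2, against medians of 0.06 and 0.04 over all genes. In the moderated F-test over the 3 lines 7 of 10 passed, as did 25.1% of all genes.

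**Figure D1:**
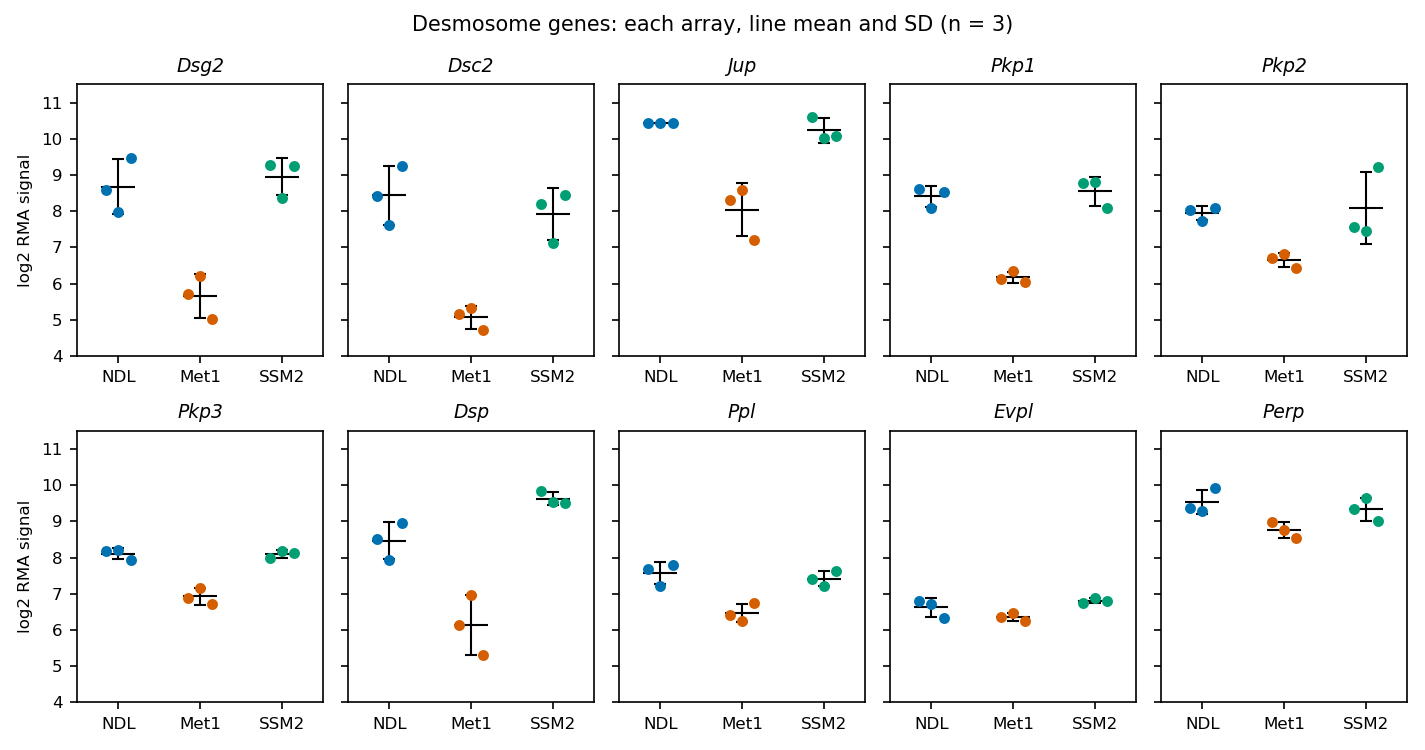
Log2 RMA signal (vertical axis) of the 10 desmosome genes on each array, by tumour line (horizontal axis). Points are arrays in replicate order, the horizontal bar is the line mean and the whisker the SD (n = 3). All Met1 arrays lie below all other arrays for every gene except Evpl.

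Desmoglein 2 and desmocollin 2, the cadherins of simple epithelia, showed some of the largest gaps. Dsg2 (feature 10454172, chromosome 18) stood at 8.59, 7.96 and 9.47 in NDL, 5.72, 6.22 and 5.02 in Met1, and 9.27, 8.35 and 9.23 in SSM2. Every Met1 array lay below every other array, while NDL and SSM2 overlapped. The excess of NDL over Met1 was 8.12-fold (log2 difference 3.02, SE 0.44, limma adjusted p = 0.00218), and Met1 lay 9.84-fold under SSM2 (-3.30, SE 0.44, adjusted p = 0.00224). Dsc2 (feature 10457686, chromosome 18) stood at 8.43, 7.62 and 9.25 in NDL, 5.16, 5.34 and 4.72 in Met1, and 8.20, 7.11 and 8.44 in SSM2. The Met1 mean of 5.07 was close to the mark of low signal, so the sizes that follow depend on the background. The difference was 10.3-fold between NDL and Met1 (3.36, SE 0.46, adjusted p = 0.00151) and 7.18-fold between Met1 and SSM2 (-2.84, SE 0.46, adjusted p = 0.00504). In both genes replicate 2 was the lowest array of NDL and of SSM2, and replicate 3 the lowest of Met1. Dsg2 and Dsc2 were the pair of members most alike over the 9 arrays (r = 0.972, a description across arrays of 3 lines).

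Other desmosomal cadherins are genes of stratified epithelium such as skin, and in RefSeq the 9 cadherin genes lie side by side on chromosome 18 with no other protein-coding gene between them, Dsc2 as the second from one end and Dsg2 at the other end. Of 7 further cadherins 5 were measured (Dsg1b, Dsg1c, Dsg3, Dsg4 and Dsc3), and Dsg1a and Dsc1 were not analysed here. Dsg1b, Dsg1c, Dsg4 and Dsc3 had line means from 3.43 to 4.20, below the mark of low signal in every line, and none was called in any comparison. Dsg3, the desmoglein of basal keratinocytes, stood at 5.17, 4.89 and 5.19 in NDL, 4.58, 4.62 and 4.24 in Met1, and 5.91, 7.43 and 5.70 in SSM2. It was lower in Met1 than in SSM2 (log2 difference -1.87, SE 0.40, adjusted p = 0.0183), and the size rests on a Met1 mean below the mark. It was the 1 of 5 called there, where 11.8% of all genes were called. This call was lost without Met1 replicate 1, 2 or 3. Between NDL and SSM2 1 of the 5 was lower without SSM2 replicate 2 or 3, and between NDL and Met1 1 was higher without SSM2 replicate 2. The difference between NDL and SSM2 was -1.27 and did not pass (adjusted p = 0.0634).

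**Figure D2:**
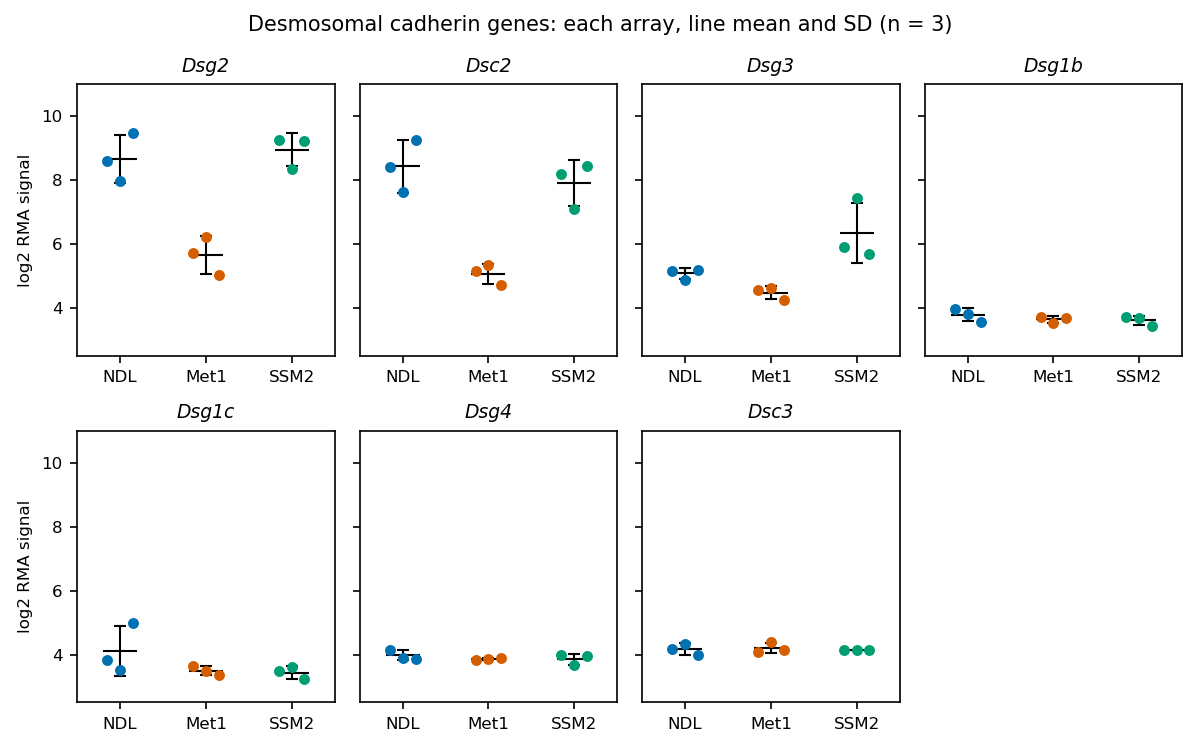
Log2 RMA signal (vertical axis) of the 7 measured desmosomal cadherin genes on each array by line; points, bars and whiskers are arrays, means and SDs (n = 3). Dsg2 and Dsc2 are lowest in Met1, Dsg3 is highest in SSM2, and Dsg1b, Dsg1c, Dsg4 and Dsc3 have line means from 3.43 to 4.20.

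Plakoglobin, encoded by Jup (feature 10391103, chromosome 11), links cadherin tails to desmoplakin and is a close relative of beta-catenin. Its signal was 10.44, 10.43 and 10.45 in NDL, 8.32, 8.60 and 7.21 in Met1, and 10.61, 10.01 and 10.07 in SSM2. The NDL arrays differed by very little (SD 0.0075), and the Met1 arrays were spread most (SD 0.74), with replicate 3 low. NDL stood 5.27-fold above Met1 (2.40, SE 0.33, adjusted p = 0.00162), and Met1 4.56-fold below SSM2 (-2.19, SE 0.33, adjusted p = 0.00384). With NDL replicate 3 as the only NDL array, assumed to vary like the other lines, the difference from Met1 was 2.41 (adjusted p = 0.0547).

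The plakophilins, armadillo-repeat proteins that cluster desmoplakin under the membrane, differed among themselves in the size of their gaps. Pkp1 (feature 10358124, chromosome 1), known from stratified epithelia, stood at 8.62, 8.09 and 8.53 in NDL, 6.14, 6.33 and 6.04 in Met1, and 8.77, 8.79 and 8.09 in SSM2. The Met1 arrays were tightly grouped and far below the others. The gap was 4.72-fold for NDL over Met1 (2.24, SE 0.22, adjusted p = 0.000311) and 5.21-fold for Met1 below SSM2 (-2.38, SE 0.22, adjusted p = 0.00035). Pkp3 (feature 10558795, chromosome 7), found in most epithelial desmosomes, stood at 8.19, 8.21 and 7.93 in NDL, 6.89, 7.17 and 6.72 in Met1, and 7.98, 8.19 and 8.12 in SSM2. Its gap was smaller, with little spread within lines: 2.27-fold for NDL over Met1 (1.18, SE 0.14, adjusted p = 0.000829) and 2.25-fold for Met1 under SSM2 (-1.17, SE 0.14, adjusted p = 0.00136).

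Pkp2 (feature 10433887, chromosome 16), the plakophilin of simple epithelia and heart, was at 8.03, 7.73 and 8.09 in NDL, 6.71, 6.80 and 6.44 in Met1, and 7.56, 7.46 and 9.23 in SSM2. Met1 again lay below every other array, but SSM2 replicate 3 stood well above the other SSM2 arrays. Neither comparison with Met1 passed (NDL minus Met1 1.30, SE 0.42, adjusted p = 0.0636; Met1 minus SSM2 -1.43, SE 0.42, adjusted p = 0.0623). Without SSM2 replicate 3 both passed, at 1.30 (limma adjusted p = 0.000767) and -0.86 (limma adjusted p = 0.0119). Among 23 alternatives in all, NDL minus Met1 passed in 6 and Met1 minus SSM2 in 4. Both signal filters and the array weights were among these in each comparison.

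Among the plakins, large proteins that connect junctions to filaments, desmoplakin had the widest range. Dsp (feature 10404649, chromosome 13) stood at 8.52, 7.95 and 8.96 in NDL, 6.14, 6.97 and 5.30 in Met1, and 9.83, 9.53 and 9.51 in SSM2. The 3 lines did not overlap, with Met1 lowest, NDL between and SSM2 highest. NDL exceeded Met1 5.06-fold (2.34, SE 0.40, adjusted p = 0.00476), and SSM2 exceeded Met1 11.2-fold (Met1 minus SSM2 -3.49, SE 0.40, adjusted p = 0.0011). The NDL mean was 2.22-fold below SSM2 (-1.15, SE 0.40), which did not pass (adjusted p = 0.0848). It passed without NDL replicate 3 (-1.39, adjusted p = 0.0431), Met1 replicate 2 (adjusted p = 0.0488) or Met1 replicate 3 (adjusted p = 0.0445).

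Periplakin and envoplakin form a pair that also serves the cornified envelope of skin. Ppl (feature 10437516, chromosome 16) stood at 7.68, 7.22 and 7.80 in NDL, 6.41, 6.25 and 6.73 in Met1, and 7.41, 7.22 and 7.63 in SSM2. Met1 lay below the other lines by 2.15-fold against NDL (1.10, SE 0.19, adjusted p = 0.00512) and 1.94-fold against SSM2 (-0.96, SE 0.19, adjusted p = 0.0143). The call against SSM2 was lost when Met1 replicate 1 (adjusted p = 0.0608) or Met1 replicate 2 (0.0611) was left out. Evpl (feature 10393197, chromosome 11) stood at 6.81, 6.72 and 6.34 in NDL, 6.37, 6.47 and 6.26 in Met1, and 6.74, 6.87 and 6.81 in SSM2. Its values covered a range of only 0.61 over the 9 arrays, and no comparison passed (NDL minus Met1 0.26, adjusted p = 0.227; Met1 minus SSM2 -0.44, adjusted p = 0.0757). NDL replicate 3 was the lowest NDL array, and without it both comparisons passed (0.40, adjusted p = 0.0216; -0.44, adjusted p = 0.0188).

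Perp, a membrane protein of desmosomes that is a target of p53 and p63 in mouse (feature 10361887, chromosome 10), moved least among the called members. It stood at 9.38, 9.30 and 9.93 in NDL, 9.0, 8.76 and 8.55 in Met1, and 9.34, 9.66 and 9.02 in SSM2. NDL and Met1 did not overlap, and the lowest SSM2 array was 0.019 above the highest Met1 array. NDL was 1.70-fold higher than Met1 (0.77, SE 0.22, adjusted p = 0.0439), and Met1 minus SSM2 was -0.57 (SE 0.22), which did not pass (adjusted p = 0.156). The call against Met1 was lost in 12 of 23 alternatives, among them 7 of the 9 that left out 1 array (all but SSM2 replicates 2 and 3), with limma adjusted p from 0.0514 to 0.147 in those 7.

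**Figure D3:**
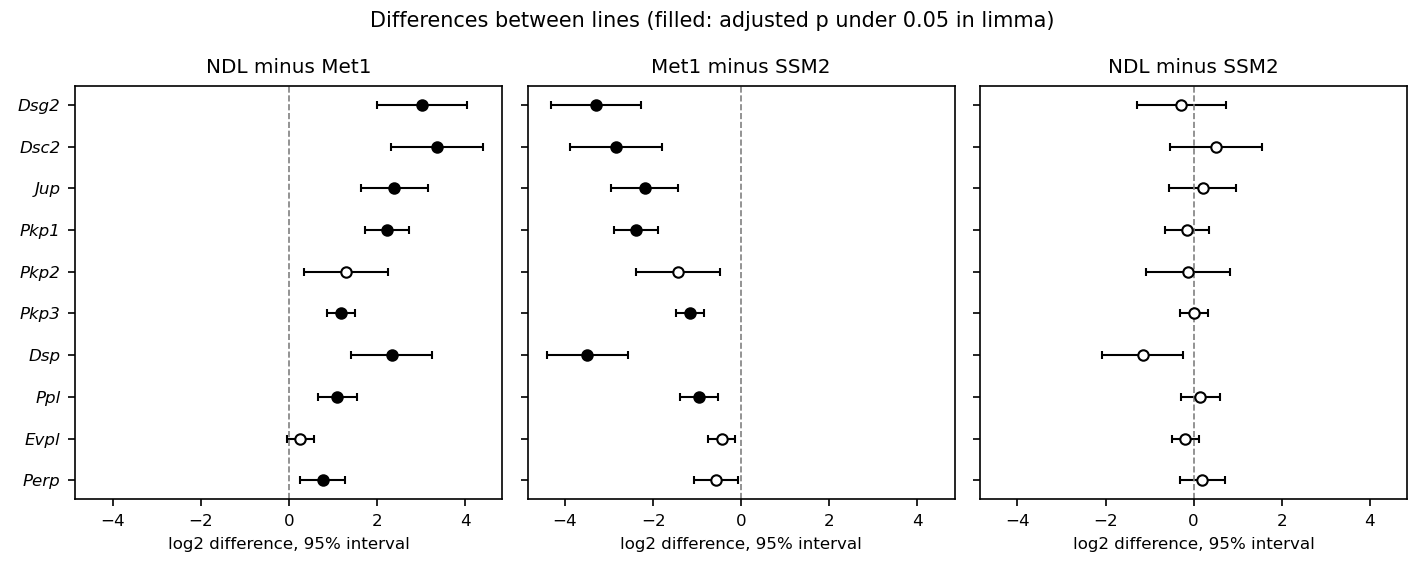
Log2 differences between lines (horizontal axis) for the 10 genes (vertical axis) with 95% intervals from limma; filled points have an adjusted p under 0.05. In the first panel 8 genes are filled on the right, in the second 7 on the left, and in the third, NDL minus SSM2, none.

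Between NDL and SSM2 the 10 genes had a median log2 difference of -0.06 and ranged from -1.15 (Dsp) to 0.52 (Dsc2). With limma 0 of 10 passed, where 16.9% of all genes did (9.35% higher and 7.52% lower in NDL), and 1 of 10, Dsp, had an unadjusted p under 0.05, as did 34.2% of all genes. Dsp was also the 1 of 10 whose arrays did not overlap, against 31.6% of all genes. These results do not show that the lines are alike, since the 95% intervals run from -2.07 to 1.56. The interval was -1.29 to 0.74 for Dsg2, -0.53 to 1.56 for Dsc2 and -0.55 to 0.97 for Jup. It was narrower for Pkp3 (-0.31 to 0.34), Evpl (-0.50 to 0.13) and Ppl (-0.30 to 0.59).

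Within Met1 most members shared an order of arrays, and how many of all genes shared it was not counted. Met1 replicate 3 was the lowest Met1 array for 9 of 10 members, all but Ppl, and replicate 2 was the highest for 8. In NDL, replicate 2 was lowest for 8 of 10 and replicate 3 highest for 7. The upper quartile of gene signal in NDL was also lowest in replicate 2 (7.84) and highest in replicate 3 (8.09). Over the 9 arrays the 45 pairs of members had a median Pearson r of 0.821 (range 0.358 to 0.972, 13 pairs above 0.9). Evpl (median r 0.644 with the other members) and Perp (0.729) followed the rest least, and Dsg2 (0.907), Jup (0.905) and Pkp1 (0.905) most. These correlations describe 9 arrays that share 3 lines, and points of a line are not independent.

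Markers of epithelial cells moved with the desmosome genes. Mean signal of the 7 epithelial markers (Epcam, Krt8, Krt18, Cdh1, Cldn3, Cldn7 and Rab25) was 10.83, 10.93 and 10.90 in NDL, 7.89, 8.11 and 6.37 in Met1, and 10.73, 10.85 and 10.97 in SSM2. All 7 were higher in NDL than in Met1, against 8.88% of all genes. All 7 were lower in Met1 than in SSM2, against 4.71% of all genes. Between NDL and SSM2 none passed, against 16.9% of all genes. Cdh1, Krt8 and Krt18 are also in lists described separately. Met1 replicate 3 was the lowest Met1 array in both lists, with a desmosome mean of 6.30 against 6.69 and 6.89. Within the other lines the order of arrays differed between the lists, and the reason was not tested. The epithelial means ran from 10.83 to 10.93 in NDL and from 10.73 to 10.97 in SSM2. NDL replicate 2 had the lowest NDL desmosome mean (8.12 against 8.47 and 8.68) and the highest NDL epithelial mean. In SSM2 replicate 2 was lowest for desmosome genes (8.32) and replicate 1 for epithelial markers. In whole tumours fewer epithelial cells and less RNA per cell cannot be told apart.

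Macrophage markers went the other way. Their mean over 7 genes ranged from 10.32 to 10.47 in Met1, 8.70 to 9.43 in NDL and 8.72 to 10.04 in SSM2, with 6 of 7 lower in NDL than in Met1 and 4 of 7 higher in Met1 than in SSM2. Fibroblast markers (6 genes) averaged 9.55 ± 0.24 in NDL, 8.75 ± 0.59 in Met1 and 10.35 ± 0.86 in SSM2 (SD, n = 3). Of the 6, 3 were higher and 1 lower in NDL against Met1, and 1 higher and 3 lower in Met1 against SSM2. Over all genes 8.88% were higher and 10.2% lower in NDL against Met1. For Met1 against SSM2, 7.10% of all genes were higher and 4.71% lower in Met1. Endothelial (5), T cell (5), adipocyte (4) and skeletal muscle (4) marker means ranged from 6.62 to 7.91, 4.99 to 6.24, 5.17 to 7.25 and 5.71 to 6.14 over the arrays. Of these, 2 of 5 T cell genes were lower in NDL and 2 higher in Met1 in the comparisons with Met1, and no gene of the other 3 lists passed there. Skin keratinocyte markers, measured as 4 of 5 listed, averaged between 4.73 and 5.10 on every array, close to the mark of low signal, and none was called in any comparison. The part of the other lists in the desmosome differences was not tested.

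**Figure D4:**
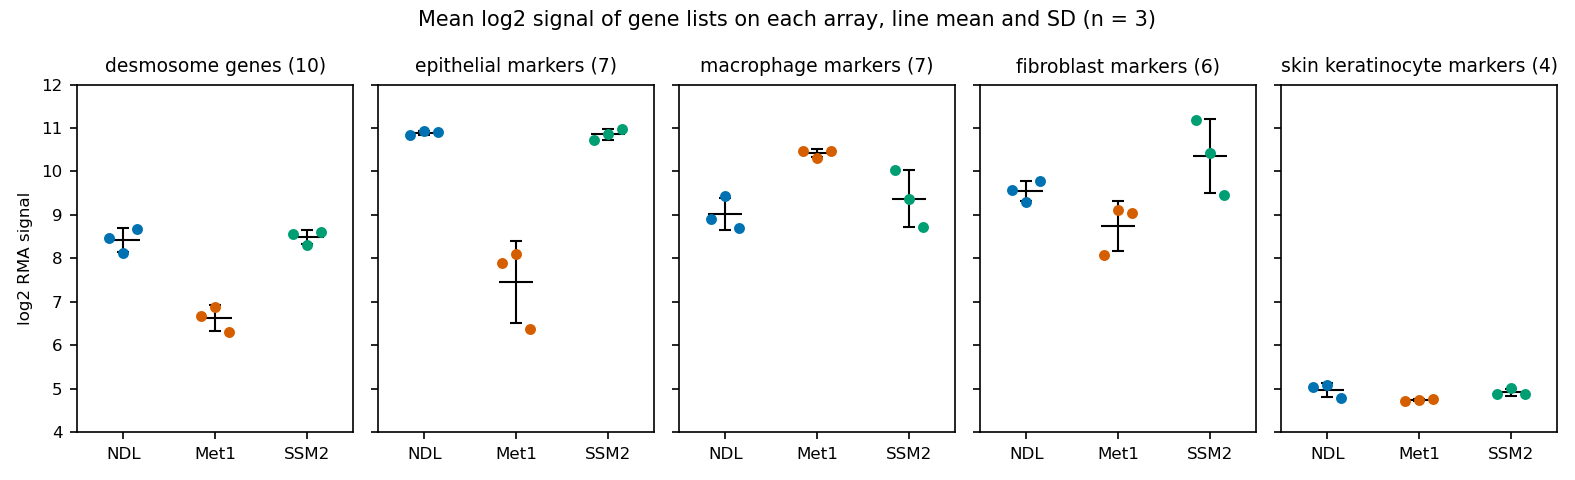
Mean log2 RMA signal (vertical axis) of the 10 desmosome genes and of 4 marker lists on each array by line, with list sizes in the titles; points are arrays, bars means and whiskers SDs (n = 3). The desmosome and epithelial means are lowest in Met1 and the macrophage mean is highest there.

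Proteins that work with desmosomes formed a list of 10. The counts in this and the following lists stand beside the shares of all genes called. These were 19.1% for NDL against Met1, 16.9% for NDL against SSM2 and 11.8% for Met1 against SSM2. Eppk1, the plakin epiplakin that binds keratins, followed the core genes at 8.00, 8.64 and 8.04 in NDL, 5.97, 6.29 and 5.70 in Met1, and 7.93, 8.87 and 8.06 in SSM2. It was higher in NDL than in Met1 (2.24, SE 0.29, adjusted p = 0.00112) and lower in Met1 than in SSM2 (-2.30, adjusted p = 0.00152). NDL against Met1 gave 2 of 10 higher, Eppk1 and the periplakin partner Kazn (0.64, adjusted p = 0.0287), and 1 lower, the sheddase Adam17 (-1.55, adjusted p = 0.0117); without SSM2 replicate 3 these were 4 and 1. Met1 against SSM2 gave 3 of 10 lower, Eppk1, Pof1b (-2.61, from a Met1 mean of 3.60, below the mark) and the sheddase Adam10 (-1.63); without Met1 replicate 1, Met1 replicate 2, Met1 replicate 3 or SSM2 replicate 2 only 1 was lower. Adam10, a protease that can cut desmoglein 2, was also the 1 in which NDL lay below SSM2 (-2.34, adjusted p = 0.00673), where 4 were lower without NDL replicate 3. The plakophilin relative Pkp4 was 8.99 in NDL, 8.23 in Met1 and 9.11 in SSM2 and did not pass.

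The adherens junction is the neighbouring junction, built on E-cadherin and actin, and its core genes were less uniform. Of 9 measured, 4 were higher in NDL than in Met1, Cdh1 (2.71, SE 0.38, adjusted p = 0.00172), Nectin4 (1.77), Ctnnd1 (0.57) and Nectin2 (0.52), and 2 were lower, the actin linkers Vcl (-0.62) and Afdn (-0.85). Without Met1 replicate 2 these counts were 3 and 0. The alpha-catenin gene Ctnna1 and the beta-catenin gene Ctnnb1, a paralogue of Jup, differed by -0.13 (adjusted p = 0.613) and 0.39 (adjusted p = 0.202). Met1 was lower than SSM2 in Cdh1 (-3.42, adjusted p = 0.000915) and Nectin4 (-1.52, adjusted p = 0.0164), the 2 of 9 that passed; 1 passed without Met1 replicate 1 or Met1 replicate 3. NDL was lower than SSM2 in 2, Vcl (-0.80) and Afdn (-0.72); 1 passed without NDL replicate 1 or 2, Met1 replicate 1, or SSM2 replicate 1, 2 or 3.

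Transcription factors that support or repress epithelial genes divided the lines as well. Grhl2, a grainyhead factor that activates epithelial junction genes, was at 8.72, 8.36 and 8.93 in NDL, 5.62, 6.30 and 5.19 in Met1, and 8.57, 8.42 and 8.76 in SSM2. The difference was 2.97 for NDL minus Met1 (SE 0.27, adjusted p = 0.000233) and -2.88 for Met1 minus SSM2 (adjusted p = 0.000399), with Met1 replicate 3 again the lowest array. Of 11 activators 7 were higher in NDL than in Met1, led by Elf5 (4.05), Ehf (3.14), Grhl2 and Elf3 (1.85), and 1, Klf4, was lower (-1.07). Met1 was lower than SSM2 in 6 of 11, with Grhl2, Elf3 (-2.21), the epithelial factor Klf5 (-2.07) and Ovol1 (-1.66) in the lead. Between NDL and SSM2 3 were higher, Elf5 (4.64), Grhl1 (1.10) and Ovol2 (0.58), and 3 lower, Klf5 (-1.93), Trp63 (-1.66) and Klf4 (-0.62). Trp63 encodes p63, which acts on Perp. For Perp the difference between NDL and SSM2 was 0.20 (limma adjusted p = 0.54), with an interval from -0.31 to 0.71. Whether p63 has a part in the Perp signal of these tumours was not tested.

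Of 6 repressors of epithelial genes, Zeb1, Snai1 and Twist1 were higher in Met1 than in both other lines. Zeb1 stood at 6.02, 5.89 and 6.09 in NDL, 8.27, 8.64 and 8.31 in Met1, and 7.22, 6.48 and 6.53 in SSM2, with no overlap between Met1 and the others. NDL was lower than Met1 in 4 of 6 measured, Zeb1 (-2.40, SE 0.20, adjusted p = 0.000159), Twist1 (-1.98), Zeb2 (-1.95) and Snai1 (-1.65). Met1 was higher than SSM2 in 3, Twist1 (3.46), Zeb1 (1.66) and Snai1 (1.48), and lower in Snai2 (-1.94). NDL against SSM2 gave Twist1 higher (1.48) and Zeb1 (-0.74) and Snai2 (-2.04) lower. Twist1 was highest in Met1 and lowest in SSM2. The remaining repressor, Twist2, passed in no comparison. Its signal was 6.31, 6.30 and 5.62 in NDL, 5.54, 5.53 and 5.59 in Met1, and 6.40, 6.13 and 5.81 in SSM2. Every Met1 array of Twist2 lay below every other array, the opposite direction to Zeb1, Snai1 and Twist1.

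**Figure D5:**
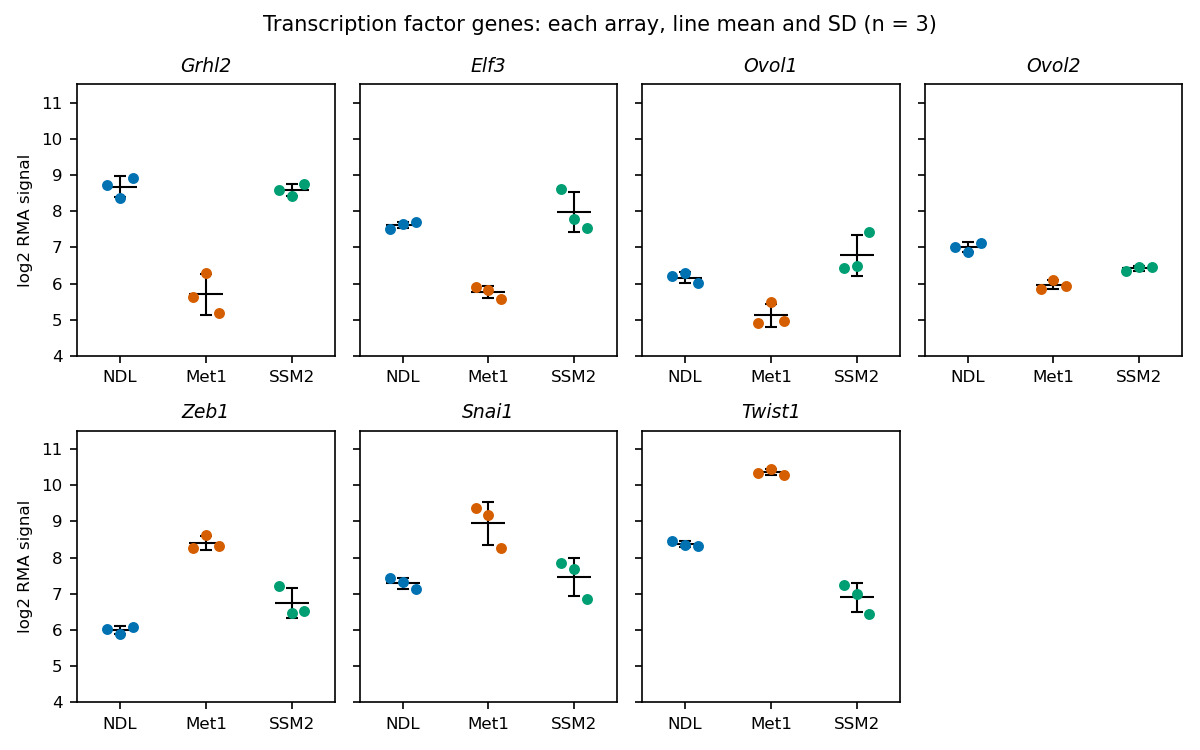
Log2 RMA signal (vertical axis) on each array by line for the 7 transcription factor genes of both lists that were called lowest or highest in Met1 in both comparisons; points are arrays, bars means and whiskers SDs (n = 3). Grhl2, Elf3, Ovol1 and Ovol2 are lowest in Met1, and Zeb1, Snai1 and Twist1 highest there.

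Over all 18545 other protein-coding genes, the mean of the 10 standardised members was most like Grhl2 (Pearson r = 0.995 over 9 arrays), the membrane protein gene Cdcp1 (0.992) and the receptor gene Erbb3 (0.989). For single members the gene most alike was Bhlhe41 for Dsp (0.984), Fermt1 for Pkp1 (0.985), Omp for Pkp2 (0.975), Ap1m2 for Pkp3 (0.986) and Lad1 for Jup (0.992). It was Cdcp1 for Dsg2 (0.981), Map7 for Dsc2 (0.982), Golph3 for Perp (0.945), Ankzf1 for Ppl (0.964) and Tbx1 for Evpl (0.960). These are the highest of many values, over arrays that share 3 lines, and they describe likeness of pattern only. Pkp2, whose SSM2 arrays were spread, had the related gene Pkp4 as its second (0.972).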

How the data were processed

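The series holds total RNA of 9 frozen tumour samples, of which 100 ng each was labelled and hybridised to 1 array, per the labels' protocols. The log2 values deposited by the authors came from RMA in oligo 1.40.2, per the submitters' processing notes; RMA corrects background, equalises quantiles and summarises probes, which narrows large differences near background. Of 35556 features 21789 carried 1 gene symbol, 1621 several and 12146 none in the platform annotation; names were updated by gene ID from RefSeq GRCm38.p6 (21698 matched). The feature with the highest mean over 9 arrays stood for each of 19938 genes, with no filter on signal. The sources used here give no array dates, so batches were not examined. Probe coordinates are not given because no genome build is named.

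Groups came from sample titles. A line model was fitted to all 9 arrays with lmFit and eBayes in limma 3.58.1 (R 4.3.3; 6 residual and 2.42 prior degrees of freedom), with 3 two-sided contrasts and an F-test, Benjamini-Hochberg adjusted over 19938 genes and called under 0.05. Errors of differences are standard errors; those of means are SDs. The procedure was tested on simulated data. Alternatives were signal filters, a trended robust variance, equal medians, cyclic loess, gene-by-gene array weights, features averaged or all tested, a replicate block, 2-line fits, a minimum fold of 1.5, joint adjustment, NDL replicates 1 and 2 left out, and each array left out; quantile normalisation was added after the data were seen. Named genes are the 10 members and the most alike genes. Up to 4 called genes per related list and comparison were also named (all where 5 or fewer). Dsg1b, Dsg1c, Dsg4, Dsc3, Pkp4, Ctnna1, Ctnnb1 and Itga6 were named after their values were seen. So were Itgb4, Ivl, Tgm1, Tgm3, Scel, Cnfn and Twist2, and Dsg3 where uncalled. Members and lists were chosen with earlier results of these data known. Promoters are RefSeq GRCm38.p6 windows, which held 2 of the 10 members. Figures used matplotlib 3.10.9 and pandas 2.3.3.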

Additional observations from a re-analysis of the deposited data

How the results depend on the processing

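The count of desmosome members called was 6 to 10 for NDL against Met1, 5 to 9 for Met1 against SSM2 and 0 to 1 for NDL against SSM2 over 23 alternatives, and 7 to 10 in the F-test over 20. Over the same alternatives the count of all 19938 genes called ran from 871 to 10125, 542 to 3726 and 644 to 7742; the 10 of 10 for NDL against Met1 came with array weights, where 10125 genes were called. With 1 array left out these ranges were 7 to 9, 6 to 8, 0 to 1 and 7 to 9. The 1 call between NDL and SSM2 was Dsp. Without NDL replicates 1 and 2 together NDL is 1 array, assumed to vary like the other lines, which alone give the spread; 6 members were then called against Met1. Of 690 member results, 642 kept direction and side of the threshold, 18 lost their call, 19 gained one and 11, none of them called, changed sign: for NDL minus SSM2, Pkp2 was 0.11 with array weights, and without NDL replicates 1 and 2 Pkp2 was 0.0048, Pkp3 -0.16 and Dsg2 0.52, with Evpl -0.024 for NDL minus Met1. With 1 array left out, NDL minus SSM2 ran from -0.45 to 0.44 in Pkp2, -0.044 to 0.10 in Pkp3, -0.68 to 0.079 in Dsg2 and -0.37 to 0.018 in Pkp1. Replicate numbers did not pair the samples (correlation of deviations from -0.347 to 0.288); with the replicate block 7 members passed against Met1 in each comparison, Perp being lost (adjusted p = 0.0901).

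Counts in the related lists moved more, and the cause was not tested beyond what each setting does. Array weights gave, for NDL against Met1, 2 further cadherins, 6 linked proteins, 4 hemidesmosome and 2 cornified envelope genes; for NDL against SSM2, 1 cadherin and 3 linked proteins; for Met1 against SSM2, 5 linked proteins and 4 hemidesmosome genes. A minimum fold of 1.5 gave, for NDL against Met1, 1 linked protein, 1 adherens junction, 0 hemidesmosome, 4 activator and 2 repressor genes; for NDL against SSM2, 0 adherens junction, 1 hemidesmosome and 2 activator genes; for Met1 against SSM2, 0 cadherins, 1 linked protein, 1 adherens junction and 2 activator genes. Without NDL replicates 1 and 2, with NDL again 1 array, the counts were, for NDL against Met1, 1 cadherin, 2 adherens junction, 0 hemidesmosome, 5 activator and 2 repressor genes; for NDL against SSM2, 1 cadherin, 0 linked proteins, 0 adherens junction genes, 3 keratins, 3 activators and 1 repressor; for Met1 against SSM2, 0 cadherins. The hemidesmosome count for NDL against Met1 was 0 with every feature tested, the replicate block or 2 lines alone; 2 lines alone also gave 1 cadherin there and 0 for Met1 against SSM2. The filter at the 25th percentile raised the cadherin count for NDL against SSM2 from 0 to 1, and that at the median lowered the cornified envelope count from 2 to 1 in both comparisons with SSM2.

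With 1 array left out, counts ranged for NDL against Met1 from 3 to 7 in adherens junction genes, 0 to 1 in hemidesmosome genes, cornified envelope genes and further cadherins, and 2 to 5 in linked proteins; for NDL against SSM2 from 1 to 2 in adherens junction genes, 2 to 5 in hemidesmosome genes, 0 to 1 in cadherins and 1 to 4 in linked proteins; for Met1 against SSM2 from 1 to 3, 2 to 4, 0 to 1 and 1 to 4.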

Other observations

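Other epithelial anchoring genes differed between NDL and SSM2. Over all genes 16.9% were called between NDL and SSM2, 19.1% for NDL against Met1 and 11.8% for Met1 against SSM2. Keratins, the filaments that desmosomes and hemidesmosomes hold, gave 3 of 9 higher in NDL against Met1 (Krt8 4.24, Krt7 3.59 and Krt18 3.36, all simple epithelial) and 7 of 9 lower in Met1 against SSM2. Against SSM2, NDL was lower for 5 of 9, Krt19 (-7.14), Krt5 (-4.62), Krt15 (-4.20), Krt14 (-4.07) and Krt17 (-3.52), in the comparison in which 0 of 10 desmosome members passed.

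Hemidesmosome genes, which fix cells to the basement membrane, numbered 8 measured, and for 4 NDL lay below SSM2: Col17a1 (-1.84), the laminin chains Lamb3 (-1.64) and Lama3 (-1.14), and the plakin Plec (-0.86). Without NDL replicate 1 the count was 2. Met1 was lower than SSM2 in Lamb3 (-2.84) and Col17a1 (-1.79); 4 passed without NDL replicate 3. NDL was higher than Met1 in Lamb3 alone (1.20, limma adjusted p = 0.0437), and that call was lost without NDL replicate 1 or 2, Met1 replicate 1 or 3, or SSM2 replicate 1 or 2. The integrin genes Itga6 and Itgb4 passed in no comparison.

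Of 7 cornified envelope genes, which in skin are joined to periplakin and envoplakin, 2 were called, both highest in SSM2. Of all genes 16.9% were called for NDL against SSM2, with 7.52% lower in NDL. For Met1 against SSM2 11.8% were called, with 4.71% lower in Met1. Whether 2 of 7 sets this list apart was not tested. Sprr1a was lower by 6.07 in NDL and by 6.30 in Met1, and Sprr1b by 1.62 and 1.73 on the log2 scale. The Sprr1b means in NDL (4.78) and Met1 (4.67) lay below the mark of low signal, so these sizes depend on the background. Ivl, Tgm1, Tgm3, Scel and Cnfn did not pass in any comparison. Without NDL replicate 3, 1 gene was higher in NDL than in Met1.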
